A study of Mus musculus with 32 samples.

Results

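Hox genes, the homeobox genes that lie in 4 clusters of the mouse genome (Hoxa, Hoxb, Hoxc and Hoxd), were followed by cluster and by position in ear and back skin of sham and HDM mice. Every transcript cluster whose symbol in the array's annotation was Hox, a cluster letter and a number, with nothing after it, was taken. This gave 33 of the 39 Hox genes, out of 19572 transcript clusters with a symbol. Each of the 33 was represented by 1 transcript cluster. The other 6 are not analysed here.

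All animals were NC/Nga mice, which are inbred and develop dermatitis readily, and 8 mm punches of dorsal (back) skin and of ear were taken from sham and HDM animals. This gave 4 groups of 8 mice (sham back skin, HDM back skin, sham ear and HDM ear), each with 1 array per mouse and tissue, 32 arrays in all. The series is titled for dermatitis induced by HDM. The labels do not spell out HDM, do not describe the sham treatment and give neither age nor sex. Mouse numbers 1 to 8 recur in each group, and the labels do not say whether a back sample and an ear sample of the same number come from the same animal.

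Hox genes encode transcription factors that give cells an identity along the body axis. Within a cluster, genes with low numbers, the anterior members, are switched on early and up to the head, and genes with high numbers are used toward the tail, the limb ends and the genital region. Genes with the same number in different clusters are paralogues that arose by duplication of the cluster. Adult skin, and its fibroblasts in particular, keeps a Hox pattern that differs between body sites.

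Many homeodomain proteins bind short sequences with the core TAAT, and Hox proteins paired with a Pbx cofactor bind composite sequences such as TGATNNAT. The 250 bases upstream of the annotated start, read 5′ to 3′ on the strand of the gene, are shown for 5 members: Hoxa2, the member with the largest difference toward the ear, and Hoxa5, Hoxb8, Hoxc4 and Hoxd8, which were all lower in the ear and stand for the 4 clusters. The sequences are from RefSeq on GRCm38.p6, and capitals mark each match to TAAT or TGATNNAT on either strand, so that a match to the other strand appears as its reverse complement.
Hoxa2: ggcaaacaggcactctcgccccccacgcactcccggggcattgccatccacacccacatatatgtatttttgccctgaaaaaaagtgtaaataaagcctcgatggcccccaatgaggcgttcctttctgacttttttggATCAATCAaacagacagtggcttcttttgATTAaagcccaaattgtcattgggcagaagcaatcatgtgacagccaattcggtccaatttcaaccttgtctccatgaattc
Hoxa5: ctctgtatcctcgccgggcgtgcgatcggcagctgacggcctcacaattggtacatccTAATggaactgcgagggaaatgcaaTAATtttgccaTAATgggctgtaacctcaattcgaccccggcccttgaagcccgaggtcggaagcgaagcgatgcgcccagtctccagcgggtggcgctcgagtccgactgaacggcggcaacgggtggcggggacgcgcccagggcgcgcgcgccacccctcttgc
Hoxb8: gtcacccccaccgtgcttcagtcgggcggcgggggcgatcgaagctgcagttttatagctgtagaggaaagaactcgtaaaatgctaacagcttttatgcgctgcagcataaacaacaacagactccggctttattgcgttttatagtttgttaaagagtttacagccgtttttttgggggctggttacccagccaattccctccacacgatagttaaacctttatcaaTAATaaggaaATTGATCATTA
Hoxc4: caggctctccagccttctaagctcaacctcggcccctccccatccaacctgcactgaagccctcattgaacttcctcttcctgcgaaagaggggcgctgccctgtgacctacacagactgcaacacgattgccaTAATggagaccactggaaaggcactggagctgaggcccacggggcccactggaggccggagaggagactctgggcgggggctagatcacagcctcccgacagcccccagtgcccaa
Hoxd8: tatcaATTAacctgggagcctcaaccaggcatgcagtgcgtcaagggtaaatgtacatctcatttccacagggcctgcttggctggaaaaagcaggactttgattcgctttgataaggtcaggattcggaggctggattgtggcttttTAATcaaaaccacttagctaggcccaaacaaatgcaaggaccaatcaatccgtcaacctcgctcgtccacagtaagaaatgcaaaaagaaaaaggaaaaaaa
The Hoxa2 window lies at chr6:52164832-52165081 on the minus strand and the Hoxa5 window at chr6:52204588-52204837 on the minus strand. The Hoxb8 window lies at chr11:96281655-96281904, the Hoxc4 window at chr15:103034145-103034394 and the Hoxd8 window at chr2:74704365-74704614, all on the plus strand. TAAT matched once in the windows of Hoxa2 and Hoxc4, in 2 places for Hoxd8 and Hoxb8, and in 3 for Hoxa5. TGATNNAT matched once in Hoxa2 and once in Hoxb8, where it shares its last base with a TAAT match. Of 19 windows of 17 Hox members in the table, 15 held TAAT and 4 held TGATNNAT, against 54.9% and 7.68% of all 32851 windows of this length. A match describes the letters only. Windows of Hoxc6, Hoxc8, Hoxc13 and Hoxb7 are not shown.

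All levels are log2 values, and levels of different genes were not compared, since probes differ in brightness. The background of an array was the median of its 5222 negative control transcript clusters, between 4.43 and 5.38, and its group mean was 4.72 in sham back skin, 4.84 in HDM back skin, 5.20 in sham ear and 4.82 in HDM ear. This level is a lenient one, since 21.2% to 23.6% of the negative controls themselves lay above it on all 8 arrays of a group. Cartilage genes marked the ear: 9 of 12 lay below background on all arrays of back skin, in both sham and HDM mice, and 2 of 12 did so in the ear. Genes of the hair matrix, cortex and cuticle were higher on most back arrays than in the ear. Their mean over 15 genes was 10 to 12.1 in HDM back skin and 5.58 to 13.6 in sham back skin. On the ear arrays of both treatments it was 4.24 to 6.06. Sham back mouse 1, at 5.58, and mouse 2, at 8.88, stood apart from the other 6 sham back arrays, at 10.1 to 13.6. Results for Hox genes that rest on mice 1 and 2 are given without them too.

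In sham back skin, 9 of the 33 Hox genes were above background on all 8 arrays, 6 on some and 18 on none. In sham ear these counts were 3, 3 and 27. The genes on all sham back arrays were Hoxa2, Hoxa5, Hoxb2, Hoxb3, Hoxb7, Hoxc6, Hoxc8, Hoxc13 and Hoxd8, and those on all sham ear arrays were Hoxa2, Hoxb2 and Hoxd8. HDM back skin had 8 on all arrays, 8 on some and 17 on none, and HDM ear had 4, 4 and 25. Over all transcript clusters, 53.7%, 52.5%, 50.4% and 52.6% were above background on all arrays of sham back skin, HDM back skin, sham ear and HDM ear. With the 90th percentile of the negative controls as background, 7.08 to 8.49, Hoxc8 in HDM back skin was the single member on all arrays of a group.

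**Figure D1:**
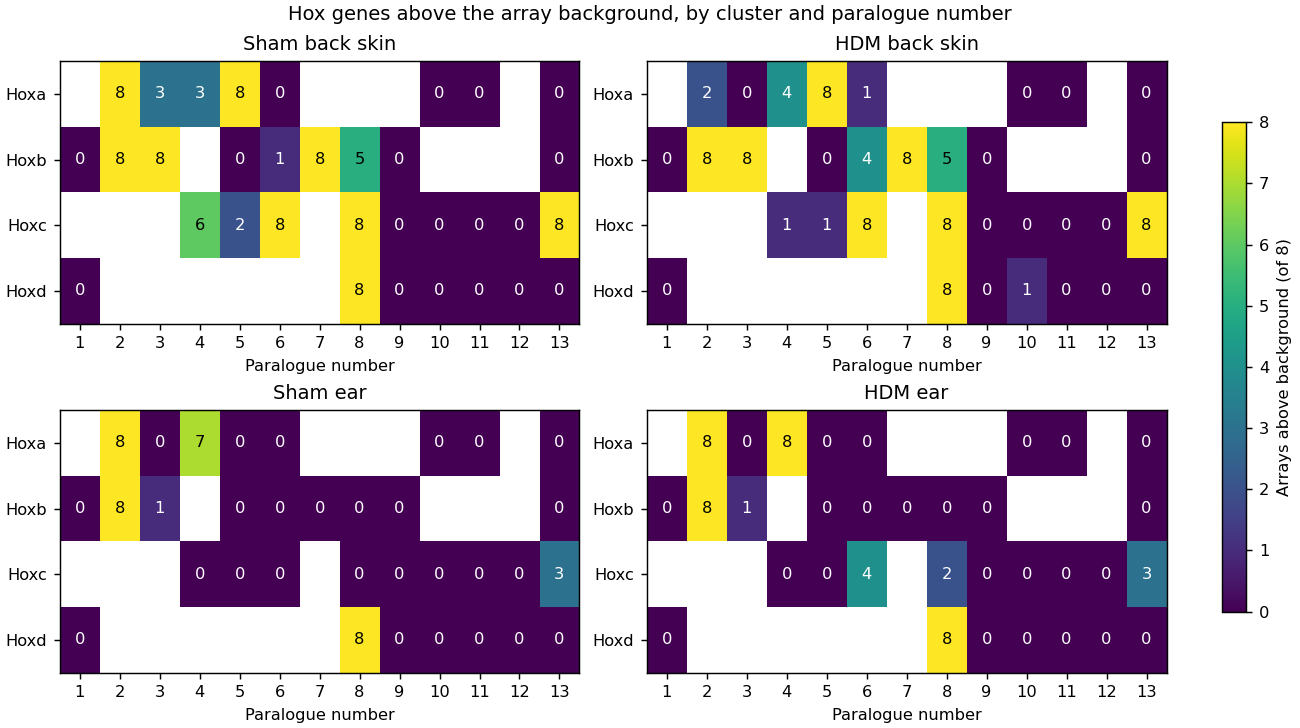
Number of arrays, of 8, on which each Hox gene lay above the array background, by cluster (vertical) and paralogue number (horizontal), in 1 panel per group, with white where no transcript cluster was analysed. Back skin is filled from paralogue 2 to 8 and at Hoxc13, the ear mainly at Hoxa2, Hoxb2, Hoxd8 and Hoxa4, and among paralogues 9 to 13 other than Hoxc13 the single filled cell is Hoxd10 on 1 HDM back array.

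The members divided by position. Of 6 members with paralogue numbers 1 to 3, 3 were above background on all sham back arrays and 2 on all sham ear arrays. Of 12 members numbered 4 to 8, 5 were above on all sham back arrays and a further 5 on some, whereas in sham ear Hoxd8 was above on all and Hoxa4 on 7 of 8. Of 15 members numbered 9 to 13, 14 were above background on no sham back array and 14 on no sham ear array, Hoxc13 being the exception in both. These 14 genes, which include Hoxa13, Hoxd13 and Hoxb13, used in development at the limb ends and the tail end of the body, had group means between 2.50 and 3.81. Hoxb1 and Hoxd1, the most anterior members analysed, were also below background on all 32 arrays.

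Ear and back skin of sham mice were compared to ask how Hox expression differs between the head and the trunk. Of the 33 genes, 2 were higher in sham ear and 15 lower at a Benjamini-Hochberg adjusted p under 0.05 (limma), and 16 were not called. Over all 22206 transcript clusters tested, 15.6% were higher and 14.1% lower. The higher members were Hoxa2 and Hoxa4. The median difference was -0.13 over the 33 members, -0.32 over paralogues 1 to 3, -1.66 over 4 to 8 and -0.01 over 9 to 13, beside 0.04 over all transcript clusters. All 12 members numbered 4 to 8 were called, 11 lower and 1 higher, against 1 higher and 3 lower of 6 numbered 1 to 3 and 1 lower of 15 numbered 9 to 13. By cluster, 2 were higher and 3 lower of 8 in Hoxa, 6 lower of 9 in Hoxb, 5 lower of 9 in Hoxc and 1 lower of 7 in Hoxd. Of the 15 lower members, Hoxa6 and Hoxb5 lay below background on all arrays of both groups.

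**Figure D2:**
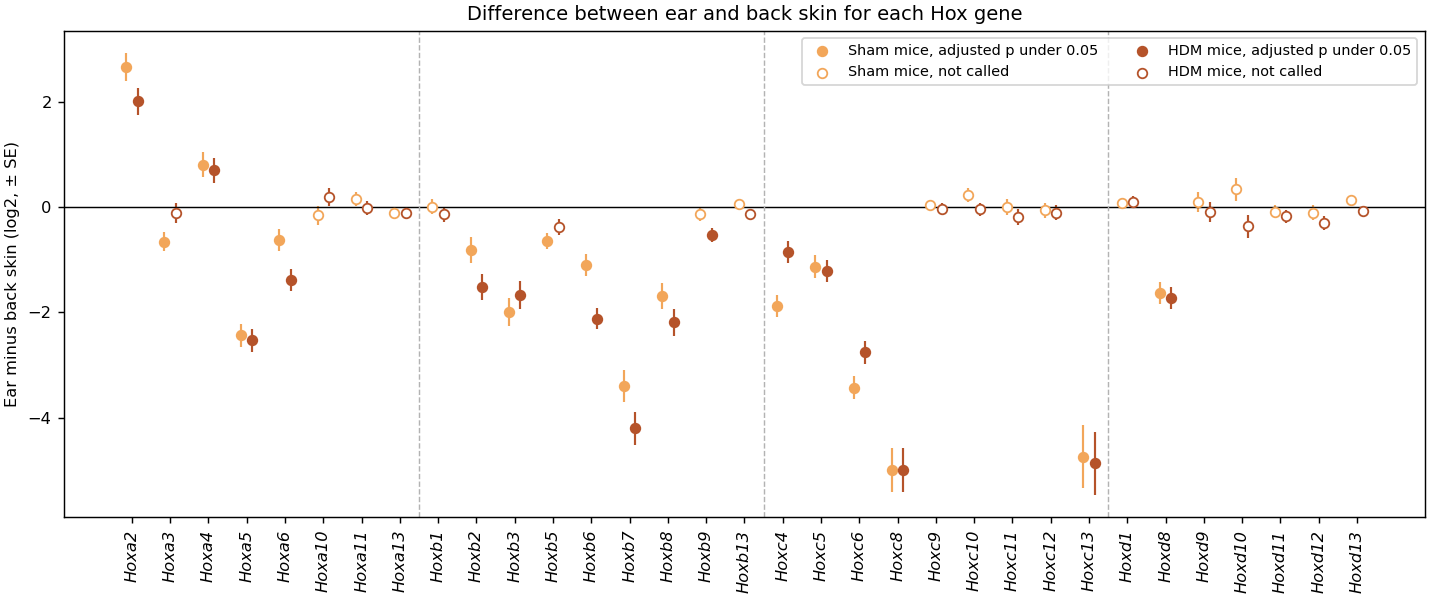
Ear minus back skin (log2, ± SE) for the 33 Hox genes in cluster and paralogue order, in sham mice (light) and HDM mice (dark), with filled points for an adjusted p under 0.05 and dashed lines between clusters. Hoxa2 and Hoxa4 lie above 0 in both, the other filled points lie below 0, and Hoxc8, at -4.99 in both, lies lowest.

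Among the 6 anterior members, Hoxa2 was higher in the ear, Hoxa3, Hoxb2 and Hoxb3 were lower, and Hoxb1 and Hoxd1, below background throughout, were not called. Hoxa2 specifies the identity of the second pharyngeal arch, which contributes to the middle ear and the outer ear. Its level was 4.89, 5.48 and 6.15 (lowest, median and highest of 8 mice) in sham back skin and 6.95, 8.37 and 8.55 in sham ear. Every ear array lay above every back array. The difference was 2.66 ± 0.26 (SE, adjusted p = 1.12e-09).

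Hoxb2, a paralogue of Hoxa2 that acts in the hindbrain and the facial motor neurons, was above background on all 32 arrays and lower in the ear. It measured 6.30, 7.45 and 7.98 in sham back skin and 5.97, 6.62 and 6.98 in sham ear (lowest, median and highest), with overlap, and the difference was -0.81 ± 0.24 (adjusted p = 0.0113). Hoxb3, a group 3 gene of the hindbrain and pharyngeal region, measured 5.92, 6.41 and 7.98 in sham back skin and 4.55, 4.70 and 5.32 in sham ear. The groups did not overlap, 1 of 8 ear arrays was above background, and the difference was -1.99 ± 0.27 (adjusted p = 4.98e-07). Hoxa3, needed for thymus and parathyroid development, measured 3.92, 4.64 and 5.08 in sham back skin, above background on 3 arrays, and 3.52, 3.81 and 4.26 in sham ear, on none. It was lower by the fit (-0.66 ± 0.19, adjusted p = 0.00723), with overlap.

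Hoxa4, a gene of the neck region, was the other member higher in the ear, though the groups overlapped. It measured 4.14, 4.62 and 5.85 in sham back skin and 4.63, 5.58 and 6.34 in sham ear, and the difference was 0.81 ± 0.24 (adjusted p = 0.00895). It was above background on 3 sham back arrays and on 7 sham ear arrays. The annotated span of Hoxa3 overlaps those of Hoxa4, Hoxa5 and Hoxa6, so that the values of these 4 genes are uncertain where probes lie in shared sequence. The same holds for Hoxb3, whose span overlaps that of Hoxb4, a gene not analysed here, and for Hoxd10 and Hoxd11, whose spans overlap.

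The trunk members Hoxa5, Hoxb7, Hoxc6 and Hoxc8 were above background on every back array and on no sham ear array. Hoxa5, which patterns the neck-to-thorax transition and the lung, measured 5.45, 6.40 and 7.44 in sham back skin and 3.28, 4.13 and 4.34 in sham ear. Hoxb7, a thoracic gene, measured 5.40, 7.52 and 8.19 in sham back skin and 3.06, 3.75 and 4.18 in sham ear. Neither gene overlapped between the groups. The differences were -2.43 ± 0.22 for Hoxa5 (adjusted p = 1.92e-10) and -3.39 ± 0.31 for Hoxb7 (adjusted p = 2.54e-10). With the array background in place of the ear values, the levels in the ear were at least 2.37-fold and at least 3.71-fold lower.

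Hoxc6, which acts in the thoracic skeleton, measured 7.07, 7.50 and 8.83 in sham back skin and 3.73, 4.22 and 4.72 in sham ear. Hoxc8, which patterns thoracic vertebrae and forelimb motor neurons, measured 6.70, 9.13 and 9.82 in sham back skin and 2.85, 3.88 and 4.44 in sham ear. The groups were far apart for both, including sham back mice 1 and 2, which at 6.70 and 6.75 had the lowest Hoxc8 of their group. The differences were -3.43 ± 0.22 for Hoxc6 (adjusted p = 8.39e-14, at least 5.54-fold lower in the ear) and -4.99 ± 0.42 for Hoxc8 (adjusted p = 3.77e-11, at least 11.5-fold lower).

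**Figure D3:**
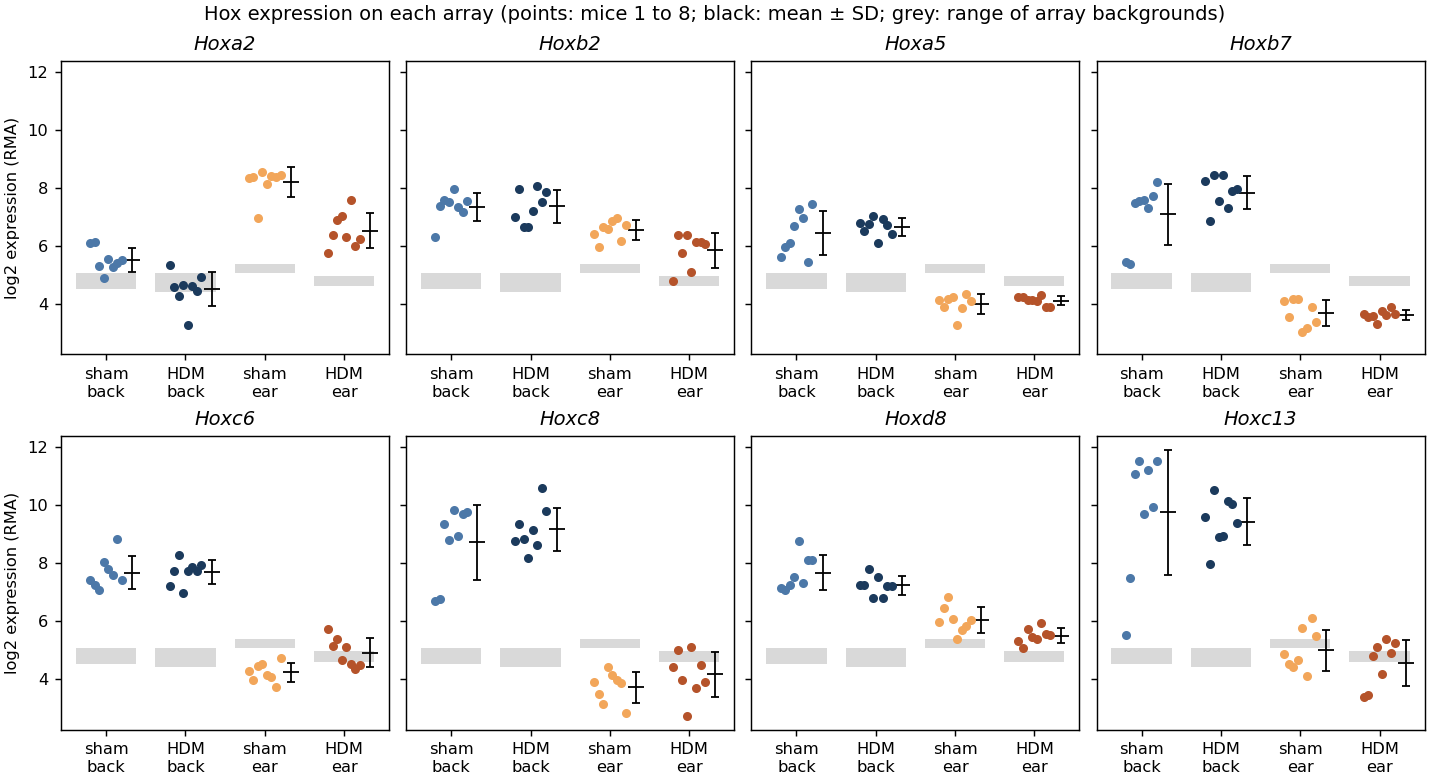
Log2 expression of 8 Hox genes on each array (points, mice 1 to 8 of a group), with the mean ± SD in black and the range of the array backgrounds of each group in grey. Hoxa5, Hoxb7, Hoxc6 and Hoxc8 lie above the grey band in back skin and mostly in or below it in the ear, Hoxa2 is highest in sham ear, and 1 sham back array, mouse 1 at 5.54, lies within the range of the ear for Hoxc13.

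Hoxd8, the most anterior member of the Hoxd cluster analysed apart from Hoxd1, kept a level above background in both tissues. It measured 7.08, 7.43 and 8.77 in sham back skin and 5.40, 6.00 and 6.83 in sham ear, with no overlap, and the difference was -1.63 ± 0.21 (adjusted p = 2.64e-07). The other group 4 to 8 members called lower were near or below background in back skin and below it on every sham ear array. Hoxc4, a neck-region gene, measured 3.79, 5.00 and 5.26 in sham back skin and 2.33, 2.93 and 3.18 in sham ear (-1.88 ± 0.21, adjusted p = 2.23e-08). Hoxb8, which acts in the spinal cord and in myeloid cells, measured 3.39, 4.89 and 5.49 in sham back skin and 2.59, 2.86 and 3.30 in sham ear (-1.69 ± 0.25, adjusted p = 2.66e-06). Neither overlapped between the groups, and 6 and 5 sham back arrays were above background.

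Hoxc5 measured 3.47, 3.91 and 4.69 in sham back skin, above background on 2 arrays, and 2.64, 2.91 and 3.19 in sham ear, a difference of -1.13 ± 0.21 (adjusted p = 9.51e-05). Hoxb6, a marker of the lateral and posterior mesoderm in the embryo, measured 3.28, 4.03 and 4.76 in sham back skin, above background on 1 array, and 2.69, 2.92 and 3.07 in sham ear, a difference of -1.10 ± 0.20 (adjusted p = 8.48e-05). The groups did not overlap for either gene, but the values lay so near or below background that the size of the difference is uncertain. When every value below 4.89, the mean of the 32 array backgrounds, was raised to that level, a choice made after seeing the data, the difference was 0 for Hoxb6, Hoxc5, Hoxa6 and Hoxb5, and the calls of Hoxb8 (-0.13, adjusted p = 0.655) and Hoxa3 (-0.04, adjusted p = 0.132) were lost too. Hoxc4 kept its call at -0.14 (adjusted p = 0.00214), and the count of lower members was 9.

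Hoxc13 was the single member numbered 9 to 13 called in the sham comparison. It drives hair keratin genes, and mice without it lack outer hair. It measured 5.54, 10.5 and 11.5 in sham back skin and 4.12, 4.77 and 6.11 in sham ear, and the difference was -4.75 ± 0.60 (adjusted p = 1.79e-07). Overlap came from sham back mouse 1, at 5.54, while mouse 2 was at 7.50 and the other 6 lay between 9.70 and 11.5. Without mice 1 and 2 the difference was -5.82 ± 0.40 (adjusted p = 3.64e-13), and the counts over the Hox genes stayed at 2 higher and 15 lower.

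The hair matrix, cortex and cuticle genes varied with Hoxc13 over the sham back arrays. Mouse 1 had the lowest Hoxc13 and the lowest mean of the 15 hair genes (5.58), and mouse 2 was next in both. Of the 5 genes whose values, centred on the group means, were most like those of Hoxc13 over the 32 arrays, Dlx3 had a Pearson r of 0.93, Msx2 0.92, Samd5 0.92, Fzd5 0.91 and Krtap3-3 0.89. Without sham back mice 1 and 2 these were 0.84, 0.79, 0.78, 0.74 and 0.66. Dlx3 and Msx2, homeobox genes of the hair matrix, belong to the list of 15 hair genes. The genes were chosen as the highest of all, and the points share arrays, so r is a description.

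**Figure D4:**
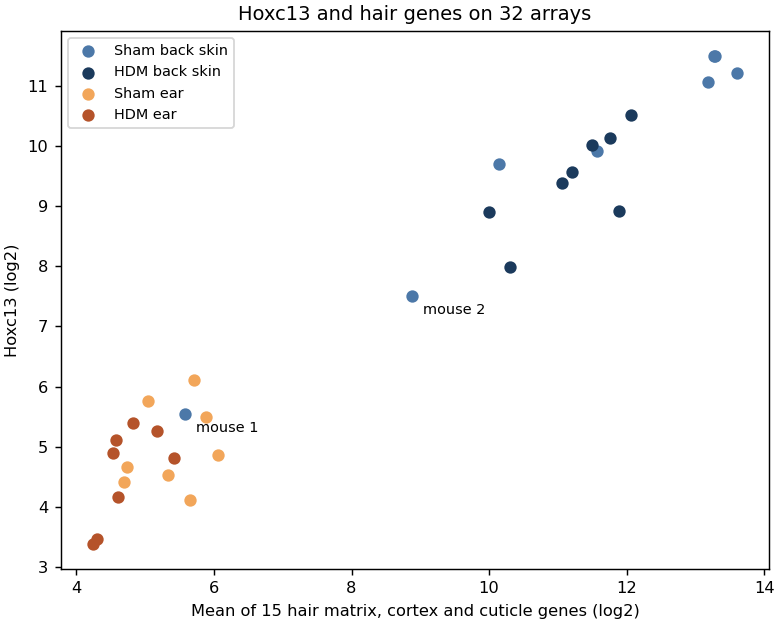
Hoxc13 (vertical, log2) against the mean of 15 hair matrix, cortex and cuticle genes (horizontal, log2) on each of the 32 arrays, coloured by group, with sham back mice 1 and 2 named. Sham back mouse 1 lies among the ear arrays, and every other back array lies to the right of and above them.

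The cell types of the punches differed along with the Hox genes. In sham ear against sham back skin, all 15 hair genes were lower (median -6.07), as were 9 of 9 inner root sheath genes and 7 of 9 adipocyte genes. Of 12 cartilage genes, 10 were higher and 1 lower (median 2.54). The mean of the 15 hair genes ran from 5.58 to 13.6 in sham back skin and from 4.69 to 6.06 in sham ear, with 4 of the 15 below background on all sham ear arrays. The mean of the 12 cartilage genes ran from 4.27 to 4.95 and from 7.34 to 7.66. Of 8 macrophage and neutrophil genes, 4 were lower in sham ear and 0 higher. Their mean was 8.52 to 11.6 in sham back skin, where mice 1 and 2 were highest at 11.6 and 11.5, and 7.20 to 8.54 in sham ear. The fibroblast list, the cell type with a known site-specific Hox pattern, had 4 genes higher and 2 lower of 11, with means of 12.2 to 13.6 in sham back skin and 12.9 to 13.3 in sham ear. In tissue punches, fewer cells of a type and less RNA per cell cannot be told apart, and the part of these cell types in the Hox differences was not tested.

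HDM ear and HDM back skin, which share no array with the sham groups, gave a second comparison of the sites. Of the 33 genes, 2 were higher in the ear and 14 lower, beside 16.8% and 11.2% of all transcript clusters. Of the 17 members called in sham mice, 15 were called with the same sign in HDM mice, and 0 had the opposite sign. That is 88.2% of the 17 and 93.8% of the 16 called in HDM mice. The same shares over all transcript clusters are not given here, so this agreement cannot be called particular to Hox genes. Hoxa3 and Hoxb5 passed in sham mice and missed in HDM mice, and Hoxb9, below background in both HDM groups, the reverse. The difference between the site differences was called for none of these 3. The median difference was -1.92 over paralogues 4 to 8, beside 0.03 over all transcript clusters.

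In HDM mice Hoxa2 measured 3.29, 4.61 and 5.36 in back skin and 5.77, 6.35 and 7.60 in the ear, again without overlap (2.01 ± 0.26, adjusted p = 2.88e-07). Hoxa4 was higher by 0.70 ± 0.24 (adjusted p = 0.0242), with overlap. The lower members were led by Hoxc8 (-4.99 ± 0.42, adjusted p = 4.17e-11) at 8.19, 8.98 and 10.6 in HDM back skin and 2.73, 4.20 and 5.12 in HDM ear. Hoxb7 measured 6.88, 7.93 and 8.45 in HDM back skin and 3.31, 3.65 and 3.91 in HDM ear, and was at least 8.12-fold lower in the ear. No array of one site entered the range of the other for these 2 genes.

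Hoxc13 did not overlap between HDM back skin, at 7.98, 9.48 and 10.5, and HDM ear, at 3.38, 4.86 and 5.40 (-4.87 ± 0.60, adjusted p = 1.22e-07). Hoxc6 was lower in HDM ear by a difference of -2.76 ± 0.22, Hoxa5 by -2.53 ± 0.22, Hoxd8 by -1.73 ± 0.21 and Hoxb3 by -1.67 ± 0.27. The groups did not overlap for these 4 genes. The other lower members measured in HDM back skin on at least 1 array were Hoxb8 (-2.19), Hoxb6 (-2.12), Hoxb2 (-1.52), Hoxa6 (-1.38), Hoxc5 (-1.22) and Hoxc4 (-0.85). Of these, Hoxb2 alone was above background on HDM ear arrays. With values below 4.89 raised to that level, Hoxa6 (-0.05) and Hoxc5 (-0.03) lost their calls, each at an adjusted p of 0.399. The differences of Hoxc4 and Hoxb9 became 0, and the count of lower members was 10. The hair genes were again all lower in the ear (15 of 15). Of 12 cartilage genes, 9 were higher and 1, Sox9, was lower (-2.61). Of 9 adipocyte genes 7 were lower, and of 12 skeletal muscle genes 10 were lower (median -2.65), against 2 higher and 3 lower in sham mice.

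HDM and sham back skin were compared to ask whether the agent changed Hox expression in the trunk. Of the 33 genes, 2 were higher and 3 lower in HDM mice, beside 6.18% and 8.56% of all transcript clusters, and 28 were not called. None of the 5 was above background on all 8 arrays of both groups, and all 5 overlapped between the groups. The median difference over the members was 0.03 (all transcript clusters, 0.01).

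Hoxb6 rose by 1.07 ± 0.20 (adjusted p = 0.000413), from 3.28, 4.03 and 4.76 in sham back skin to 3.96, 5.11 and 5.80 in HDM back skin, and was above background on 1 and 4 arrays. Hoxa6, its paralogue in the Hoxa cluster, rose by 0.65 ± 0.21 (adjusted p = 0.0282), from 2.91, 3.38 and 4.26 to 3.42, 4.28 and 5.26, and was above background on 0 and 1 arrays. Both were near the background in the HDM group and mostly below it in the sham group. Without sham back mice 1 and 2, Hoxb6 kept its call (0.85, adjusted p = 0.00418) and Hoxa6 lost it (0.56, adjusted p = 0.0973).

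Hoxc4 was lower by a difference of -1.09 ± 0.21 (adjusted p = 0.000495), with 3.79, 5.00 and 5.26 in sham back skin and 3.20, 3.48 and 4.85 in HDM back skin, above background on 6 and 1 arrays. Hoxa2 was lower by -1.01 ± 0.26 (adjusted p = 0.00701), from 4.89, 5.48 and 6.15 to 3.29, 4.61 and 5.36, above background on 8 and 2 arrays. Hoxa3 was lower by -0.57 ± 0.19 (adjusted p = 0.0342), from 3.92, 4.64 and 5.08 to 3.52, 3.89 and 4.74. All 3 genes were thus nearer to the background, or under it, in HDM back skin. Hoxc4, Hoxa2 and Hoxa3 stayed called without sham back mice 1 and 2, at -0.999, -0.81 and -0.68. With values under the common level raised to it, the calls of Hoxa2 (-0.58, adjusted p = 0.101), Hoxa3 (-0.04, adjusted p = 0.192) and Hoxa6 (0.05, adjusted p = 0.488) were lost, and those of Hoxb6 (0.34, adjusted p = 0.0168) and Hoxc4 (-0.14, adjusted p = 0.00545) were kept at smaller sizes. With the background of each array as the floor, Hoxa2 was also lost (-0.61, adjusted p = 0.0752).

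Hoxa5, Hoxb2, Hoxb3, Hoxb7, Hoxc6, Hoxc8, Hoxc13 and Hoxd8, above the lenient background on all arrays of both back groups, were not called with all arrays included. Hoxc8 differed by 0.44 ± 0.42 (adjusted p = 0.551), Hoxb7 by 0.75 ± 0.31 (adjusted p = 0.102), Hoxd8 by -0.43 ± 0.21 (adjusted p = 0.183) and Hoxc13 by -0.31 ± 0.60 (adjusted p = 0.795). Sham back mice 1 and 2 bore on these values. Without them Hoxc8 differed by -0.23 ± 0.33 (adjusted p = 0.713), Hoxb7 by 0.19 ± 0.22 (adjusted p = 0.617) and Hoxd8 by -0.61 ± 0.22 (adjusted p = 0.0545). Hoxc13 was then lower in HDM back skin by -1.39 ± 0.40 (adjusted p = 0.0164), and the count of lower members became 4. With all arrays included, 0 of the 15 hair genes were called by limma in either direction and 2 had an unadjusted p under 0.05. Their mean was 5.58 to 13.6 in sham and 10 to 12.1 in HDM back skin. Without sham back mice 1 and 2 the sham range was 10.1 to 13.6. Counts of hair genes without these mice are not given here, so they cannot be set beside the Hoxc13 value without them. Of other cell types, 4 of 8 macrophage and neutrophil genes rose with HDM in back skin, namely S100a8, S100a9, Csf3r and Cxcr2. Adgre1 (-0.28), Csf1r (-0.165), Itgam (-0.10) and Cd163 (0.57) were not called. The mean of the 8 genes was 8.52 to 11.6 in sham and 12.3 to 12.96 in HDM back skin. In sham, mice 1 and 2 were at 11.6 and 11.5 and the other 6 at 8.52 to 9.54. Of 9 adipocyte genes, 6 fell (mean 11.02 to 12.3 in sham and 9.86 to 10.9 in HDM). The part of these cell types in the Hox results was not tested.

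HDM and sham ear were compared in the same way. Of the 33 genes, 1 was higher and 3 were lower in HDM ear, beside 16.4% and 15.5% of all transcript clusters, and 29 were not called. The median difference over the members was -0.04 (all transcript clusters, -0.02). Hoxa2 was the clearest: 6.95, 8.37 and 8.55 in sham ear and 5.77, 6.35 and 7.60 in HDM ear, a difference of -1.66 ± 0.26 (adjusted p = 8.19e-06). The ranges overlapped because sham ear mouse 3, at 6.95, lay among the HDM values, while the other 7 sham arrays were above all 8 HDM arrays.

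Hoxb2 was lower in HDM ear by a difference of -0.69 ± 0.24 (adjusted p = 0.0277), from 5.97, 6.62 and 6.98 to 4.8, 6.11 and 6.39. Hoxd8 was lower by -0.53 ± 0.21 (adjusted p = 0.0499), from 5.40, 6.00 and 6.83 to 5.08, 5.50 and 5.94, a call at the threshold that was lost under 5 of the alternatives tried (adjusted p 0.0576 to 0.0653). Hoxc6 was higher by 0.68 ± 0.22 (adjusted p = 0.0165), from 3.73, 4.22 and 4.72 to 4.34, 4.90 and 5.72, with 0 sham and 4 HDM arrays above background. The background was itself lower in HDM ear (mean 4.82) than in sham ear (5.20), so these counts do not share a threshold. The groups overlapped for all 3 genes. With values under the common level raised to it, Hoxc6 differed by 0.22 (adjusted p = 0.507). With the background of each array as the floor it differed by -0.072 (adjusted p = 0.737), a value that takes in the difference between the group backgrounds.

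Other cell types moved with HDM in the ear. All 8 macrophage and neutrophil genes rose (mean 7.20 to 8.54 in sham ear, 11.3 to 14.9 in HDM ear), and 11 of 12 skeletal muscle, 9 of 9 adipocyte and 8 of 12 cartilage genes fell. The cartilage mean ran from 7.34 to 7.66 in sham ear and from 5.91 to 7.19 in HDM ear. Of 11 fibroblast genes, 2 rose and 3 fell, with group means of 13.1 in both. Whether the fall in Hoxa2 follows any of these lists was not tested.

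**Figure D5:**
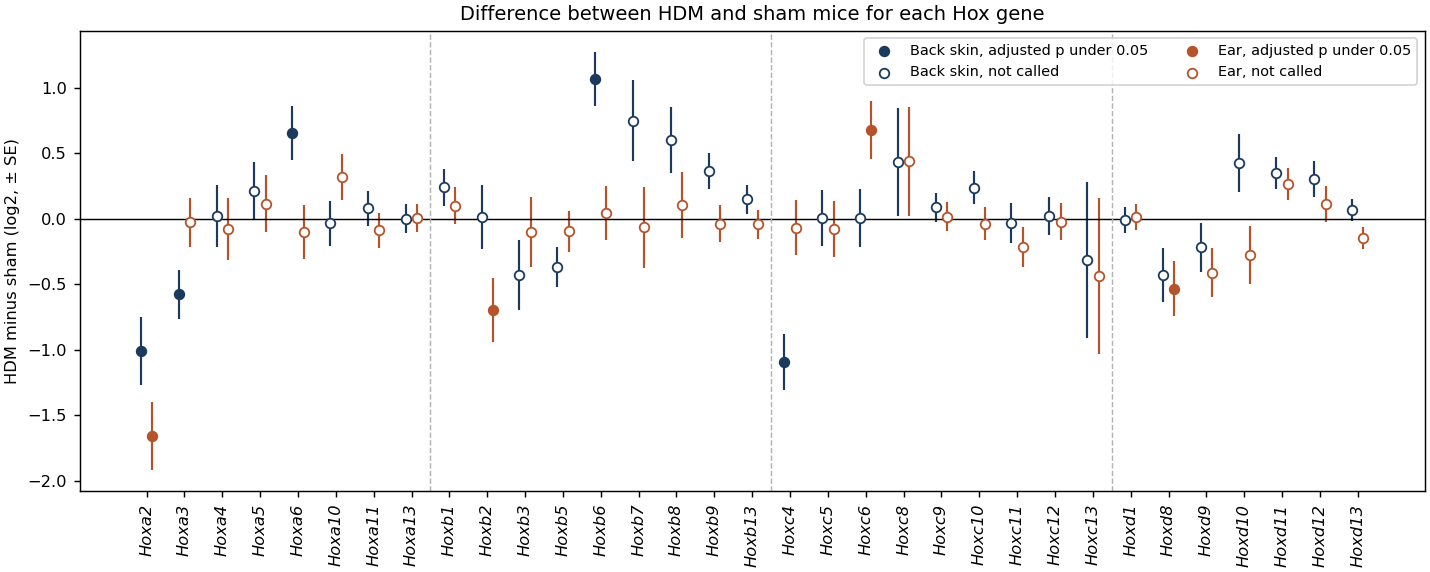
HDM minus sham (log2, ± SE) for the 33 Hox genes in cluster and paralogue order, in back skin (blue) and ear (red), with filled points for an adjusted p under 0.05 and dashed lines between clusters. Hoxa2 is the single gene with filled points in both tissues, at -1.01 in back skin and -1.66 in the ear.

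The back and ear comparisons of HDM with sham share no array. Of the 5 members called in back skin and 4 in the ear, 1, Hoxa2, was called in both with the same sign, 20% of the former and 25% of the latter. Such shares over all transcript clusters are not given here. The Hoxa2 call in back skin was lost with either floor under low values, and with the common level no member was called in both tissues. The interaction term, the HDM effect in the ear minus that in back skin, was called for 1 member higher and 1 lower, beside 6.77% and 3.37% of all transcript clusters. For Hoxb6 it was -1.02 ± 0.29 (adjusted p = 0.0205), since it rose in back skin and differed by 0.05 in the ear. For Hoxc4 it was 1.02 ± 0.30 (adjusted p = 0.0251), since it fell in back skin and differed by -0.07 in the ear. Both genes lay below background on all ear arrays, and both calls were lost without sham back mice 1 and 2 (-0.80 with adjusted p = 0.0659, and 0.93 with adjusted p = 0.062). For Hoxa2 the interaction was -0.65 ± 0.37 (adjusted p = 0.284). It was called with values raised to the common level (-1.08, adjusted p = 0.032), HDM back skin being above background on 2 of 8 arrays. With values raised to the array background it was -1.05 (adjusted p = 0.00657). Members wholly at that floor, such as Hoxa11, took -0.50 from the group backgrounds by construction, so no conclusion is drawn from this last call.

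Scaling moved some of these results. With the medians of the 32 arrays made equal, the median difference of all transcript clusters went from 0.04 to 0.16 for sham ear minus sham back, from 0.01 to 0.13 for HDM minus sham in back skin and from -0.01 to -0.13 for the interaction. The calls over all transcript clusters then went from 3469 higher and 3124 lower to 5063 and 2462, from 1372 and 1901 to 2433 and 1392, and from 1503 and 748 to 1105 and 1310. With the deposited values quantile-normalized again, the interaction split was 1106 higher and 1092 lower, and that of HDM minus sham in back skin 1626 and 1605. Among the Hox genes, equal medians gave 3 higher and 14 lower in sham ear, where Hoxa6 was lost (-0.51, adjusted p = 0.0695) and Hoxd13, below background, was called (0.26, adjusted p = 0.0251). In HDM back skin, they gave 7 higher, where Hoxb7, Hoxb8, Hoxb9, Hoxd11 and Hoxd12 were added, and 2 lower, where Hoxa3 was lost. Of those added, Hoxb9, Hoxd11 and Hoxd12 lay below background on all arrays of both back groups, and Hoxb7 passed narrowly (adjusted p = 0.0498).

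Genes that work with or regulate Hox genes were taken from lists of known members, whose counts stand beside the shares of all transcript clusters: 15.6% higher and 14.1% lower in sham ear, 16.8% and 11.2% in HDM ear against HDM back skin, 6.18% and 8.56% with HDM in back skin, 16.4% and 15.5% with HDM in the ear, and 6.77% and 3.37% for the interaction. Of 8 measured TALE cofactors, homeodomain proteins that bind DNA with Hox proteins, Meis2 and Meis1 were higher in sham ear and 0 were lower. Meis2 rose from 7.72 to 10.3 (2.61 ± 0.29, adjusted p = 2.08e-08), and Meis1 rose from 9.48 to 11.5 (2.02 ± 0.29, adjusted p = 2.11e-06). In HDM ear against HDM back skin Meis2 was again higher (2.62), with Pbx3 (0.62) and Pbx4, which was below background on all arrays of both groups. With HDM, Meis2 was lower by a difference of -1.31 ± 0.29 in back skin (adjusted p = 0.00213) and -1.30 ± 0.29 in the ear (adjusted p = 0.000773), and Meis1 in the ear by -1.66 ± 0.29 (adjusted p = 4.2e-05). The interaction was called for 1 of the 8, Meis1, at -1.28 (adjusted p = 0.043).

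Of 22 measured Polycomb and Trithorax genes, whose products hold Hox genes silent or active, 4 were higher and 3 lower in sham ear, with Cbx7 (1.55), Pcgf2 (1.25) and Ezh1 (0.80) changed most. With HDM, 4 were lower and 0 higher in back skin, led by Cbx7 (-1.12), Phc3 (-0.97) and Phc1 (-0.74). In the ear 7 were lower and 2 higher, led by Cbx7 (-2.01), Ezh1 (-1.37) and Wdr5 (1.00). In HDM ear against HDM back skin 4 were higher and 4 lower, led by Phc1 (1.00), Men1 (-0.99) and Cbx2 (-0.96). The interaction was called for Ring1 (1.08) and Wdr5 (0.96), which were higher, and Ezh1 (-1.02), which was lower. The median difference over the list was 0.04 in sham ear against sham back, -0.23 with HDM in back skin and -0.27 with HDM in the ear.

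Retinoic acid switches on anterior Hox genes in the embryo. Of 17 measured genes of its pathway, 5 were higher and 4 lower in sham ear, led by the retinol receptor Stra6 (-4.19), the degrading enzyme Cyp26a1 (3.68, with a sham back level below background on all 8 arrays, so that its size is uncertain) and the synthesising enzyme Aldh1a1 (2.25). In HDM back skin 5 were higher and 4 lower than in sham, led by Aldh1a3 (4.08), which makes retinoic acid, and the binding proteins Crabp2 (2.56) and Crabp1 (2.18). In HDM ear 4 were higher and 5 lower than in sham ear, led by Aldh1a1 (-1.69), Aldh1a3 (1.68) and Dhrs3 (-1.62). The interaction was called for Crabp2 (-2.76), Aldh1a3 (-2.40) and Rara (1.17).

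The ParaHox and Evx genes, the nearest relatives of the Hox genes, were all below background on every array (8 of 8 measured), and 0 were called by limma in any of the 5 comparisons, with at most 1 of 8 at an unadjusted p under 0.05. Of 2 measured noncoding RNAs of the clusters, Hoxd3os1 and Hoxa11os, 0 were called, and 1 had an unadjusted p under 0.05, for HDM in the ear. Of 40 other homeobox and T-box genes of regional identity, 7 were higher and 9 lower in sham ear, led by Otx1, a head gene (4.19 in sham back skin, 9.48 in sham ear, 5.28 ± 0.45, adjusted p = 5.18e-11), Dlx6, a gene of the jaw arch (3.62 ± 0.23, adjusted p = 5.81e-14, below background on all sham back arrays), and Dlx3 of the hair matrix (-3.34 ± 0.56, adjusted p = 1.91e-05). In HDM ear against HDM back skin 6 were higher and 10 lower, led by Otx1 (5.28, below background on all HDM back arrays), Msx2 (-4.58) and Dlx3 (-3.54). HDM was accompanied by 1 higher (Pitx1, below background on all arrays of both groups) and 4 lower in back skin, led by Prrx1 (-1.59) and Shox2 (-1.04), and by 0 higher and 6 lower in the ear, led by Dlx6 (-1.67), Tbx15 (-1.53) and Emx2 (-1.34).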

How the data were processed

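RNA (100 ng per sample) was hybridised to 32 biotin-labelled 1-colour Affymetrix arrays, named in the series as Mouse Clariom D. Per the submitters' processing notes, the authors deposited log2 levels obtained by RMA with the Transcriptome Analysis Console. Tool versions and the genome build were not given in the sources used here. The values ran from 1.71 to 19.93, a wide range for RMA, and whether they were rescaled could not be told. If they were, differences and folds would not be true log2 sizes, while directions would hold.

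The 6640 array controls were left out, which left 22206 transcript clusters. The limma package (version 3.58.1, R version 4.3.3) fitted the 4 group means to the 32 arrays by lmFit and eBayes, without covariate or block and with 1 pooled spread per transcript cluster (32.1 total degrees of freedom). Tests were two-sided, and a call needs an adjusted p (Benjamini-Hochberg, over all transcript clusters) below 0.05. Where every array of a group lay below background, the background stands in for its values and the fold is a lower bound ("at least"). The number of arrays, 8 per group, limits the precision.

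The Hox genes, the lists and the alternatives were chosen with earlier results of these data known. Values by group are given for the 12 members with the largest difference among those called in sham ear against sham back, and for each member called for HDM or for the interaction. For other lists the 3 called genes with the largest difference are named. For the member with the widest range in sham back skin, Hoxc13, the 5 genes with the highest correlation are named. Alternatives were a filter on dim transcript clusters, other scalings, other spread estimates, the mouse number as a block, leaving out sham back mice 1 and 2, and raising values under background. Sequences were matched by symbol to a RefSeq table of 250 bases upstream of starts, where 17 of the 33 members had a window.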

Additional observations from a re-analysis of the deposited data

Results flagged for a closer look

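Within sham ear, Hoxa2 of mouse 3 was 6.95, and the next lowest of the other 7 arrays was 8.13, a gap of 0.74 of the whole range of the group. Across the 31 combinations of member and group examined in this way, about 1 in 20 would stand apart by chance.

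The interaction term was called for 2 members, with calls that did not hold under every alternative. For Hoxb6 the ear effect minus the back effect was -1.02 (limma, adjusted p = 0.0205). For Hoxc4 it was 1.02 (adjusted p = 0.0251). Hoxb6 and Hoxc4 were below background on every ear array, where HDM and sham differed by 0.05 and -0.07. Both calls were lost without sham back mice 1 and 2 (adjusted p = 0.0659 and 0.062). With values raised to the common level they were lost too (-0.34, adjusted p = 0.126, and 0.14, adjusted p = 0.0672).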

How the results depend on the processing

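Of the 2 and 15 Hox genes higher and lower in sham ear, 15 lower ones became 9 when dim transcript clusters were filtered (13661 kept, so fewer members were tested), and 9 with values below 1 common level raised to it, an alternative added after seeing the data. In HDM ear against HDM back skin 14 lower became 9 under the filter and 10 with the common level. HDM minus sham in back skin went from 2 higher and 3 lower to 0 and 1 under the filter, to 1 and 1 with the common level, to 7 higher with equal medians, to 1 higher with the groups of the comparison alone and to 1 higher without sham back mice 1 and 2. In the ear the 1 higher became 0 with the common level. The interaction, 1 higher and 1 lower, became 0 and 0 under the filter and without sham back mice 1 and 2, and 0 higher with the common level, where Hoxa2 was called instead (-1.08, adjusted p = 0.032). With the 90th percentile of the negative controls as background, the members above it on all arrays went from 9, 8, 3 and 4 to 0, 1, 0 and 0 in sham back skin, HDM back skin, sham ear and HDM ear. The choice of another transcript cluster per symbol gave no value, since every member has 1 transcript cluster.

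When values under the background of each array were raised to it, the differences took on the difference between group backgrounds, which by construction was 0.48 for sham ear minus sham back. There 24 members were higher and 8 lower, and Hoxa6, Hoxa10, Hoxa13, Hoxb5, Hoxb9, Hoxc11, Hoxc12, Hoxd11 and Hoxd12 turned to 0.48, Hoxb6 to 0.46, Hoxc5 to 0.45, Hoxa3 to 0.35, Hoxc4 to 0.23 and Hoxb8 to 0.21. HDM ear against HDM back skin had 9 lower. HDM minus sham had 1 higher and 0 lower in back skin and 0 higher and 26 lower in the ear, where Hoxa10, Hoxa13, Hoxb1, Hoxb6, Hoxb8, Hoxc9, Hoxd1, Hoxd11 and Hoxd12 turned to -0.38 and Hoxc6 to -0.072. The interaction had 0 higher and 24 lower, where Hoxa10, Hoxa13, Hoxb5 and Hoxd1 turned to -0.50, Hoxa3 to -0.37 and Hoxc4 to -0.25.

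The mouse number gave no sign of pairing the tissues: same-numbered back and ear arrays correlated between -0.11 and 0.04 in sham mice and between -0.08 and 0.14 in HDM mice, and 0 of 8 and 1 of 8 sham and HDM pairs were best matched by their own number. With the mouse number as a replicate block, 3 lower members in HDM ear became 2, Hoxd8 being lost (adjusted p = 0.063), and no other member call changed. A block of the number within each agent changed no member call. Of 1540 values of single members under the alternatives, 1422 kept their side of the threshold, and those called also kept their direction. Members called neither in the main fit nor in the alternative count among the 1422 even where their sign changed.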
